A study of Drosophila melanogaster with 24 samples.

Results

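The genes described here are the 10 core Polycomb group genes of Drosophila melanogaster, E(z), esc, Su(z)12, Pc, Psc, Su(z)2, ph-p, ph-d, Sce and pho. They were chosen by name, for the complexes their proteins belong to, out of 13945 protein-coding genes of the dm6 annotation. Earlier results of these data were known when they were chosen. The measurement was the share of each gene body with 1 kb upstream of its start that lay under ChIP-seq peaks, called coverage below, in libraries of fly heads precipitated for H3K27me3 or for H3R17me2.

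Polycomb group proteins keep developmental genes silent, and H3K27me3, trimethylation of lysine on histone H3, is the mark they write. E(z) is the methyltransferase of Polycomb repressive complex PRC2, in which esc binds the methylated histone tail and Su(z)12 is needed for enzyme activity. Pc, Psc, ph-p and Sce are subunits of PRC1: Pc reads H3K27me3 through its chromodomain, Sce is the RING protein that ubiquitinates histone H2A, Psc compacts chromatin, and ph polymerises through its SAM domain. Su(z)2 is a relative of Psc and ph-d a relative of ph-p, each lying beside its partner in the genome. Pho is a sequence-specific DNA-binding protein that helps to recruit the complexes to Polycomb response elements. H3R17me2, dimethylation of arginine on histone H3, is written by the CARM1 family, which is Art4 in flies, and is known mainly as a mark of gene activation.

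Chromatin came from heads of male flies, 25 heads per sample, aged 3 or 40 days and of w1118 control or LKRSDH MB01942 mutant genotype. MB01942 is an insertion allele that carries a GFP marker, and LKRSDH encodes the enzyme of the first steps of lysine degradation. Each mark had 2 replicates in every one of the 4 conditions, so 16 libraries were used, 8 per mark, beside 8 inputs that entered only through the peak calling. The study describes the ChIP-seq replicates as biological, and the labels do not say whether they were separate cohorts of flies, so p-values refer to these libraries alone. The peak lists carry no expression values and so do not test the mutation itself.

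The lists differed in size between the marks. An H3K27me3 library had 3575 to 6295 peaks, of which 623 to 1967 had a q-value under 0.05, and an H3R17me2 library had 10627 to 17105 peaks, of which 3 to 130 did. Replicate 2 had the higher mean H3R17me2 coverage over all genes in each of the 4 conditions, by 9.21 to 15.8 percentage points. Few peaks lay on the X chromosome, which carries ph-p and ph-d: genes of the X had a mean coverage of 4.72% for H3K27me3 and 0.352% for H3R17me2, against 23.4% and 33.0% for genes of all other chromosomes. Read depth is unknown, because the lists hold no counts.

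For H3K27me3 the 10 genes fell into distinct classes. Psc and Su(z)2 were covered over most of their length in every library, ph-p, Sce and esc were touched at their upstream side in some or all libraries, and E(z), Su(z)12, Pc, ph-d and pho had no H3K27me3 peak in any of the 8 libraries. A gene without any H3K27me3 peak was common, since 55.2% of all protein-coding genes had none. Coverage of at least 50% in all 8 libraries, which Psc and Su(z)2 had, was found for 10.6% of all genes. The H3R17me2 values of most of the same genes lay between these extremes and scattered widely between libraries, with ph-p at 0 in all 8 and esc at 100% in 3 of them.

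**Figure D1:**
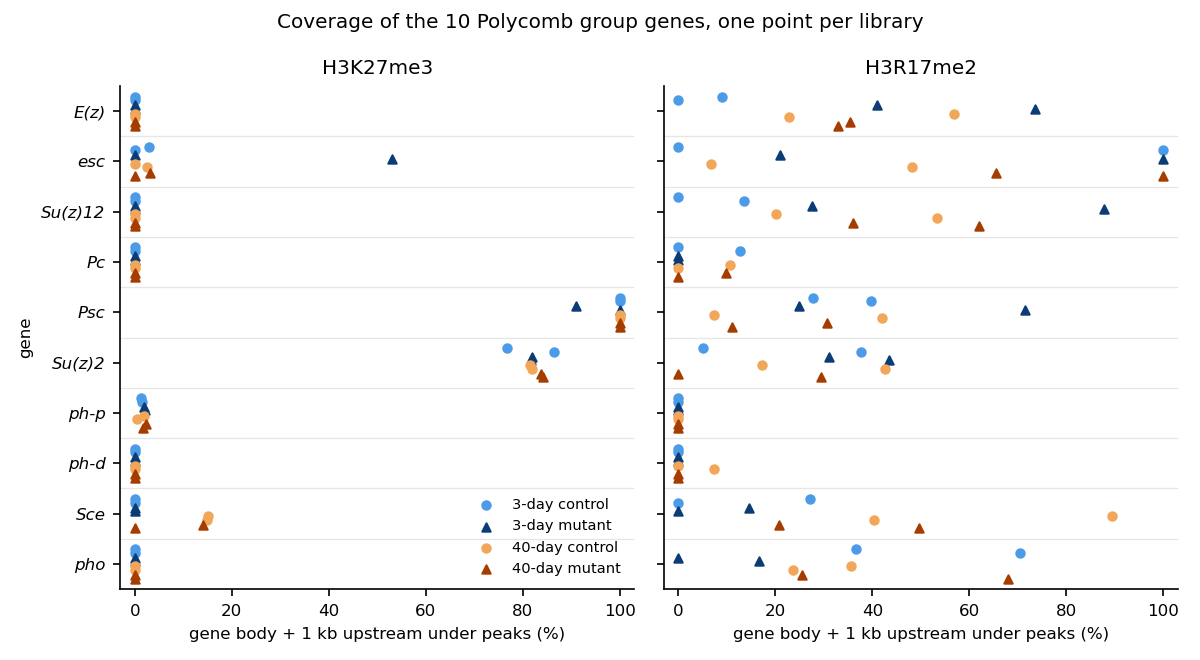
Percentage of gene body with 1 kb upstream under H3K27me3 peaks (left) and H3R17me2 peaks (right) for the 10 genes, one point per library, circles for control and triangles for mutant, blue for 3-day-old and orange for 40-day-old flies. Under H3K27me3 Psc lies between 91.0% and 100% and Su(z)2 between 76.7% and 86.5%, while 5 genes stay at 0 in all 8 libraries; under H3R17me2 the points of one gene spread over much of the axis, as for esc from 0 to 100%.

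Psc lies at chr2R:12965997-12980994 on the minus strand, and Su(z)2 at chr2R:12996501-13007911 on the plus strand, so the pair is divergent, with their starts facing each other and the small gene CG33798 between them. H3K27me3 covered 100% of Psc in 7 of 8 libraries and 91.0% in replicate 1 of the 3-day mutant. For Su(z)2 the H3K27me3 coverage was 76.7% and 86.5% in the 3-day control, 81.8% and 81.7% in the 3-day mutant, 81.4% and 82.0% in the 40-day control, and 83.8% and 84.2% in the 40-day mutant. The 3-day control had the widest gap between replicates and spanned all other values, and both 40-day mutant libraries lay above those of the 3-day mutant and of the 40-day control. The values rested on strong peaks. With only peaks of q under 0.05 both means stayed the same, at 98.9% for Psc and 82.3% for Su(z)2. The peaks over Psc had a fold enrichment over input of 1.99 to 3.11 and a -log10 q of 5.75 to 24.7, and ranked within the top 3.82% of their library by fold.

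Both genes lay in one broad region of H3K27me3, with nearly the same left edge in every library. A stretch of peaks began between 12937224 and 12939436 on chr2R and ran through Psc and the neighbours CG13321 and CG33798, both covered to 100% in all 8 libraries, to the start of Su(z)2. The peak that ended at Su(z)2 was 57.6 to 59.0 kb long in 6 libraries. Beyond an interruption, the peak over the rest of Su(z)2 was 15.9 to 16.99 kb long in 6 libraries and 66.1 and 66.4 kb in replicate 1 of the 40-day control and of the 40-day mutant. In these last libraries it joined the next H3K27me3 peak, which starts 20.3 to 20.4 kb beyond the Su(z)2 start in the other 6 libraries and covers CG13323.

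The interruption was at the same place in every library. The longest uncovered stretch in Su(z)2 with its upstream 1 kb measured 2202 ± 350 bp (SD, n = 8 libraries), with a range from 1679 to 2891 bp, and 1663 bp from 60 to 1722 bp downstream of the first annotated base of Su(z)2 was uncovered in all 8. Su(z)2 has 2 annotated transcript starts. Both lay in the uncovered stretch in 7 libraries, and the downstream one did in replicate 2 of the 3-day control, in which the left peak ended just inside the gene. By contrast the start of Psc was covered in 7 libraries. In replicate 1 of the 3-day mutant a break of 1.44 kb, from -16.7 to -15.3 kb counted from the Su(z)2 start, lay over the Psc start and accounts for its 91.0%.

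Between the left edge and the Su(z)2 start, 6 libraries had no break. The 3-day mutant libraries were the exception, with 3 breaks in replicate 1 and 2 in replicate 2. They shared a break upstream of CG33798, from -6.41 to -4.49 kb in replicate 1 and from -6.47 to -4.51 kb in replicate 2, a length of 1.93 and 1.96 kb. The peaks on either side of it had a -log10 q of at least 5.68. This break was noticed after the values were seen and is a description of 2 libraries against 6, with no test.

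**Figure D2:**
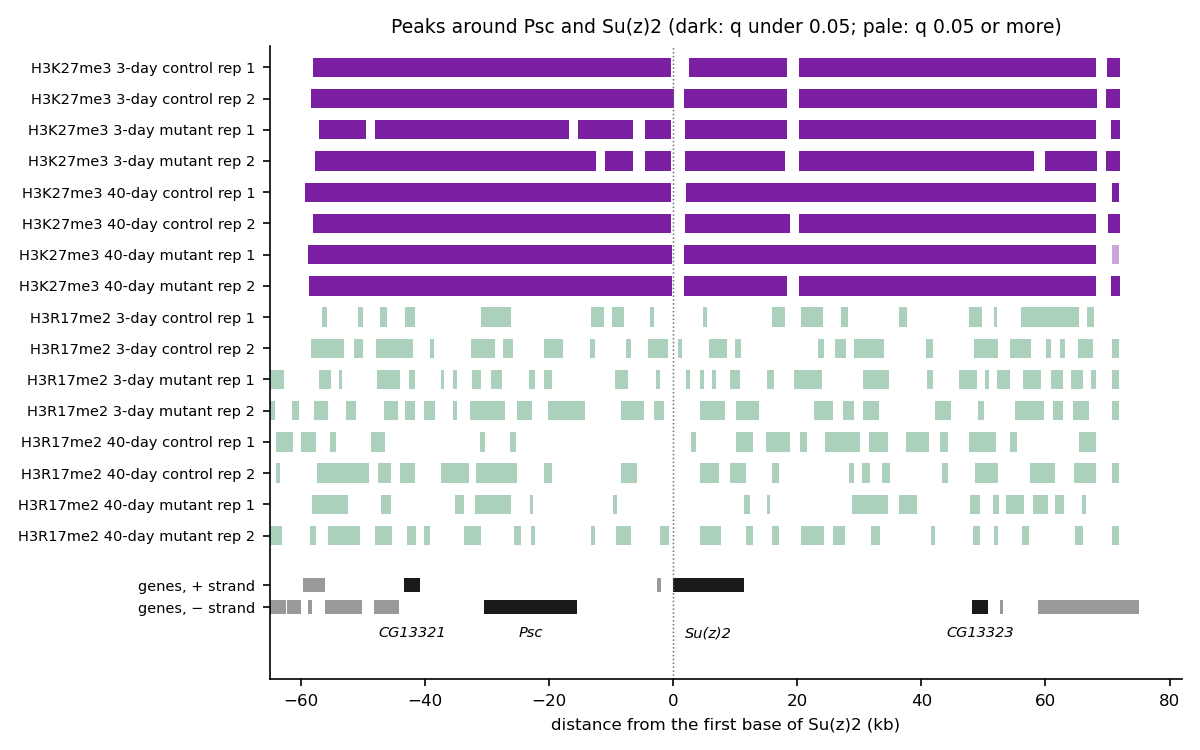
Peaks of the 16 libraries around Psc and Su(z)2, one row per library, purple for H3K27me3 and green for H3R17me2, dark where q was under 0.05, against the distance from the first base of Su(z)2 in kb, with protein-coding genes below by strand and the named ones in black. The H3K27me3 peaks stop beside the start of Su(z)2 in all 8 libraries, and the 3-day mutant libraries have further breaks to its left. The H3R17me2 peaks are short and pale. The parts of Psc and Su(z)2 they cover vary between libraries, with some parts covered in several.

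H3R17me2 peaks were found at Psc and Su(z)2 in all 8 libraries, but over a smaller and changing part. For Psc the H3R17me2 coverage ran from 7.29% to 71.4% with a median of 29.2%, and for Su(z)2 from 0.0322% to 43.4% with a median of 30.3%. The H3R17me2 peaks over these genes had a fold of 1.21 to 1.61 and no q under 0.05. Since H3K27me3 covered nearly all of Psc, the bases of Psc under both marks in libraries matched by condition and replicate number were the bases under H3R17me2, 31.8% ± 20.1 (SD, n = 8). For Su(z)2 the share under both marks was 25.3% ± 16.3 (SD, n = 8). Heads hold many cell types, and whether the 2 marks were on the same chromatin was not measured.

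The pair differed in H3K27me3. Psc exceeded Su(z)2 in 8 of 8 libraries, by 16.6 ± 4.12 percentage points (SD, n = 8; exact sign-flip permutation test, two-sided, p = 0.00781, the smallest that 8 libraries allow; adjusted p = 0.0156 over 4 tests). With the gene body alone the difference was 15.96 points. In H3R17me2 Psc was higher in 4 and lower in 4 libraries (difference 6.02 ± 18.6 points, adjusted p = 0.531 by the same exact test). The genes are neighbours under the same peaks, so these are not independent loci.

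The ph locus differed from the Psc locus. The genes ph-d, chrX:2115727-2123286, and ph-p, chrX:2126210-2138371, lie head to tail on the minus strand, 2923 bp apart. No H3K27me3 peak reached either gene body. The upstream 1 kb of ph-p was touched in 8 of 8 libraries, which gave a coverage of 1.31% and 1.55% in the 3-day control, 1.88% and 2.05% in the 3-day mutant, 1.88% and 0.517% in the 40-day control, and 2.23% and 1.60% in the 40-day mutant. The 40-day control values spanned those of the 3-day control, and both libraries of the mutant at either age lay above both 3-day control values. These are small values from one peak edge: the nearest peak began 707 to 933 bp upstream of ph-p, and with peaks of q under 0.05 only 3 of the 8 libraries kept it. On the X, 85.3% of genes had a lower mean H3K27me3 coverage than ph-p, but 82.5% had no H3K27me3 peak in any library. Any coverage above 0 thus ranks high there.

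The peak near ph-p was 559 to 1079 bp long in 7 libraries, with a second peak farther upstream, 4273 to 6070 bp long, over D2hgdh and part of Pgd. In replicate 2 of the 3-day control both were one peak of 8.26 kb with a fold of 2.13. The second peak had a q under 0.05 in 6 of 7 libraries. H3K27me3 coverage of D2hgdh, the nearest gene upstream of ph-p, was 80.3% ± 8.16 (SD, n = 8), and csw on the other side of the locus had none. For H3R17me2, ph-p had no peak, and ph-d had one in a single library, replicate 2 of the 40-day control, with a coverage of 7.44%. Of all X genes, 82.9% had no H3R17me2 peak in any library.

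**Figure D3:**
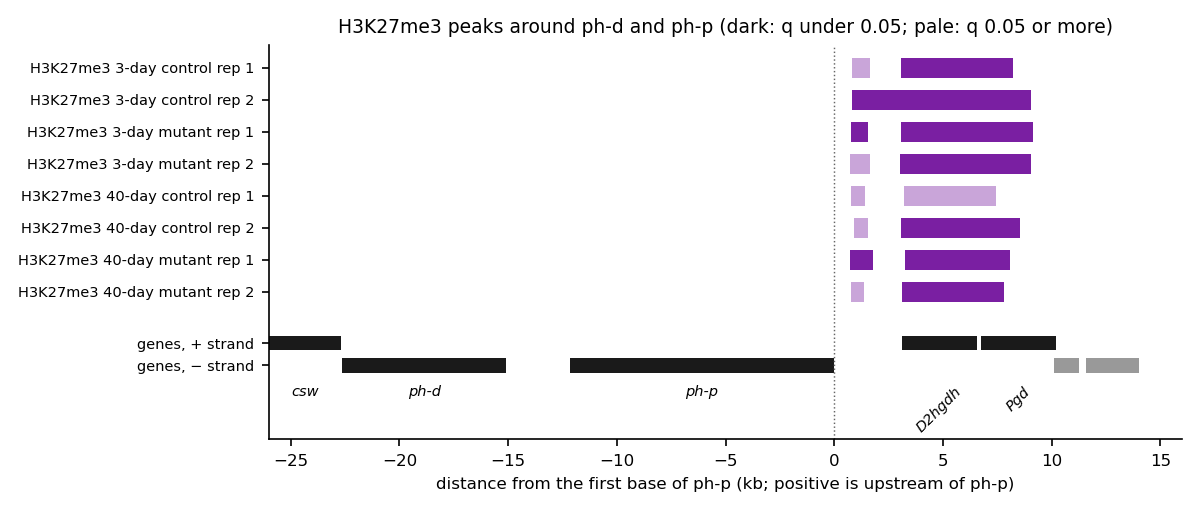
H3K27me3 peaks of the 8 libraries around ph-d and ph-p, one row per library, dark where q was under 0.05, against the distance from the first base of ph-p in kb, where positive values lie upstream of ph-p; protein-coding genes are drawn below. The short peak nearest to ph-p begins 0.707 to 0.933 kb upstream of it in all 8 libraries, and no peak lies over ph-p or ph-d.

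The stretch that lay under the nearest H3K27me3 peak in all 8 libraries was 417 bp long, chrX:2139304-2139720, from 933 to 1349 bp upstream of ph-p. Its central 300 bases are shown because they are the part of the ph locus that carried H3K27me3 in every library, and the promoters of ph-p and ph-d, 250 bases before and 50 after the start, because they did not. The sequences are from the dm6 reference genome (RefSeq), 5′ to 3′ in the direction of the genes, which is the minus strand. Capitals mark GCCAT, the core of the Pho site, and GAGAG, the site of the GAGA factor, on either strand (ATGGC and CTCTC on the other strand), overlapping matches included.
ph-p upstream peak core, chrX:2139363-2139662: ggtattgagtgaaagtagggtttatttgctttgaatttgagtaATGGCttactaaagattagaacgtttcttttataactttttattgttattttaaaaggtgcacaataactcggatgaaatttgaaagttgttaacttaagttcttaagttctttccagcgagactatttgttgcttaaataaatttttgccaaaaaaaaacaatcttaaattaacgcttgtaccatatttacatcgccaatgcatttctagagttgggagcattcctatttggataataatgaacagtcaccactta
ph-p promoter, chrX:2138322-2138621: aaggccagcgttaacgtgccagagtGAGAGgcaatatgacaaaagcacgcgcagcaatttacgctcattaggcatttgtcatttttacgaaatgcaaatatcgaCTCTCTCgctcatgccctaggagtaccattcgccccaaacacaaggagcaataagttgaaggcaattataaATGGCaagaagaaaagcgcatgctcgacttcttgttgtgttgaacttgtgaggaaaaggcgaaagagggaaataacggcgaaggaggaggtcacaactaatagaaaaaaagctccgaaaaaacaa
ph-d promoter, chrX:2123237-2123536: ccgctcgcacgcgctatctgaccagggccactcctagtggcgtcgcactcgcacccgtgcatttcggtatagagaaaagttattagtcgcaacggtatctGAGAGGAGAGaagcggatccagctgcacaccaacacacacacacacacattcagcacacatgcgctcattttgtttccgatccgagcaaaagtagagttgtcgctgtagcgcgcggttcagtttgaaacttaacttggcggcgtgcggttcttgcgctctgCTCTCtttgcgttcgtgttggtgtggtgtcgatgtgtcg
The peak core was 30.0% GC and held 1 GCCAT and no GAGAG. At least 1 GCCAT was in 47.9% of 300-base windows placed every 3 kb along the X, and at least 1 GAGAG in 29.7%. The ph-p promoter held 1 GCCAT, 75 bases before the start, and 3 GAGAG, and the ph-d promoter held 3 GAGAG and no GCCAT.

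Over all 10 promoters, GCCAT was in 5 and GAGAG in 5, and both were in 2, Psc and ph-p. Among all 13945 promoters of the same length 41.2% held GCCAT, 29.7% GAGAG and 12.3% both. The most GAGAG matches, 6, were in the promoter of Su(z)2, which had no GCCAT. A match is a description of letters and not a binding site.

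In H3K27me3 the PRC2 genes E(z) and Su(z)12 were the opposite of Psc and Su(z)2. E(z), chr3L:10634575-10638130, and Su(z)12, chr3L:19918242-19923462, had no H3K27me3 peak in any library, nor did the genes that overlap their measured regions, CG34001, Cnep1r2 and Pfdn6. E(z) and Su(z)12 each had H3R17me2 coverage in 7 of 8 libraries. The peaks behind it had a -log10 q of at most 0.129 at E(z) and 0.100 at Su(z)12. For E(z) the coverage was 9.02% and 0 in the 3-day control, 41.0% and 73.5% in the 3-day mutant, 56.8% and 22.8% in the 40-day control, and 35.4% and 32.9% in the 40-day mutant. The 3-day control was thus the lowest condition and the 3-day mutant included the highest library. For Su(z)12 it was 0 and 13.6% in the 3-day control, 27.6% and 87.8% in the 3-day mutant, 20.2% and 53.3% in the 40-day control, and 36.1% and 61.9% in the 40-day mutant. Again both 3-day control libraries were below the other 6.

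E(z) starts 15 bp from the start of the divergent gene Cnep1r2. Its promoter, chr3L:10638081-10638380, is shown as that of a member with no H3K27me3 peak in any library. It is given on the minus strand as the gene, with GAGAG or CTCTC in capitals (2 matches, and none of GCCAT).
E(z) promoter: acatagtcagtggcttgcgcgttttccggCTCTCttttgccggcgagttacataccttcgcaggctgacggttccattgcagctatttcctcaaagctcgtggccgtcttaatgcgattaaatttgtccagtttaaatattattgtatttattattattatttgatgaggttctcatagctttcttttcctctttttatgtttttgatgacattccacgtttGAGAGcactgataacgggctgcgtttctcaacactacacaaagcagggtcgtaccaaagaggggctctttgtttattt
The last 50 bases of this run lie in the gene, and 22.2% of the 1 kb upstream of E(z) lay under H3R17me2 peaks on average over 8 libraries, against 37.2% of its body.

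The small esc gene, chr2L:11827204-11829405, lies inside the larger gene Pde1c on the same strand, so peaks cannot be assigned to one of them. Its H3K27me3 coverage was 0 to 3.15% in 7 libraries and 53.0% in replicate 2 of the 3-day mutant, in which a single peak of 3.85 kb with a -log10 q of 0.749 lay over its whole upstream 1 kb and 31.7% of its body. Pde1c had 7.50% to 35.9% under H3K27me3. H3R17me2 of esc ran over the whole scale: 0 and 100% in the 3-day control, 21.0% and 100% in the 3-day mutant, 6.78% and 48.1% in the 40-day control, and 65.5% and 100% in the 40-day mutant. Replicate 2 was the higher of each pair, as for H3R17me2 coverage over all genes, and the part of library size in this was not tested. The mean of 55.2% ± 42.7 (SD, n = 8) was above that of 91.2% of all genes.

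Pc, chr3L:21306138-21318020, had little coverage by peaks of either mark. It had no H3K27me3 peak, and its H3R17me2 coverage was 0 in 5 libraries and 9.83%, 10.7% and 12.7% in the other 3. Its mean of 4.15% was lower than that of 97.2% of genes on 3L. Pc spans 11.9 kb, and each of the H3R17me2 peaks there was 1.27 to 1.64 kb long.

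Sce, chr3R:27680431-27682029, had no H3K27me3 coverage at 3 days and, at 40 days, 15.0% in both control replicates, 14.0% and 0 in the mutant. The 3 libraries share a peak that begins 0.611 to 0.637 kb upstream of Sce, and none of these peaks had a q under 0.05. The other libraries had H3K27me3 farther upstream. The next gene on that side, CG31055, had a coverage of 77.6% to 100% in 7 of 8 libraries and 0 in replicate 1 of the 3-day mutant. In the fourth 40-day library the nearest peak began 1.62 kb upstream of Sce, outside the measured 1 kb. H3R17me2 of Sce was 27.2% and 0 in the 3-day control, 14.5% and 0 in the 3-day mutant, 89.3% and 40.4% in the 40-day control, and 20.9% and 49.6% in the 40-day mutant, so that within each genotype both old libraries exceeded both young ones.

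The gene pho lies on the small chromosome 4, chr4:1172469-1181628, and had no H3K27me3 peak. Its H3R17me2 coverage was 36.7% and 70.4% in the 3-day control, 0 and 16.7% in the 3-day mutant, 35.5% and 23.7% in the 40-day control, and 25.6% and 68.0% in the 40-day mutant. Both 3-day mutant libraries were below the other 6, and both 3-day control libraries were above those of the 40-day control. All of it was in the gene body, as the 1 kb upstream of pho had no peak in any library.

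The marks were compared for each gene over 8 against 8 libraries by an exact two-sided permutation test with Benjamini-Hochberg adjustment over all 13945 genes. What was compared is the length under listed peaks. The lists differed between the marks in size and in q-values, so a higher coverage is not a higher amount of a mark. H3K27me3 was higher at 3 of the 10 genes, where 10.2% of all genes passed, and H3R17me2 was higher at 4 of the 10, where 25.6% of all genes passed. H3K27me3 exceeded H3R17me2 by 67.0 percentage points at Psc, by 56.4 at Su(z)2 and by 1.63 at ph-p (adjusted p = 0.00148 for each, exact permutation test, higher in 8 of 8 pairs of libraries of the same condition and number). The ph-p call sets the edge of 1 peak against an H3R17me2 coverage of 0 in all 8 libraries. On the X, 82.9% of genes had no H3R17me2 peak in any library. H3R17me2 exceeded H3K27me3 at E(z), with means of 33.9% and 0, at Su(z)12, with 37.6% and 0, and at pho, with 34.6% and 0 (adjusted p = 0.0064 for each, exact permutation test, higher in 7 of 8 pairs). At esc the means were 55.2% and 7.70% (adjusted p = 0.0355, exact permutation test). Sce, with 30.2% and 5.50% (adjusted p = 0.0575), Pc, with 4.15% and 0 (adjusted p = 0.305), and ph-d, with 0.930% and 0 (adjusted p = 1), did not pass the same exact test.

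Of these 7 calls, those at Psc and Su(z)2 were kept with peaks of q under 0.05. Their H3R17me2 coverage was then 0 in all 8 libraries, so this setting could not put the 2 calls to a test. With libraries paired by condition and replicate number, none of the 7 passed (exact sign-flip test, adjusted p from 0.0591 to 0.0627). In that test 8 pairs allow no p below 0.00781. None of the 82 H3R17me2 peaks over the 10 genes had a q under 0.05, against 22 of 34 H3K27me3 peaks, so with peaks of q under 0.05, with peaks of p under 0.001 or with the same number of top peaks in every list no gene was called higher in H3R17me2. The ph-p call was lost with the gene body alone, and the esc call was lost on leaving out any one of 12 of the 16 libraries (adjusted p from 0.0149 to 0.0643 over the 16 exact permutation tests).

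The age comparison asked which of the 10 genes gained or lost a mark from 3 to 40 days. None passed: over 4 against 4 libraries of both genotypes, 0 of 10 had an adjusted p under 0.05 for either mark by the exact permutation test, 0 had an unadjusted p under 0.05, and 0 had old and young libraries without overlap, where 6.73% of all genes did for H3K27me3 and 1.99% for H3R17me2. No gene of the genome passed either, the smallest adjusted p being 0.424 for H3K27me3 and 1 for H3R17me2, since 4 against 4 libraries allow no p below 0.0286. The smallest unadjusted p among the 10 for H3K27me3 was 0.143, at Sce, with means of 0 at 3 days and 11.0% at 40 days by the exact test. For H3R17me2 it was 0.0571, also at Sce, with means of 10.4% and 50.05% by the exact test.

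Within one genotype 2 libraries stood against 2, where the smallest exact p is 0.333 and only the order can be given. In the control, Sce had higher H3K27me3 at 40 days than at 3 days without overlap, 1 of the 10 genes, where 16% of all genes did not overlap in either direction, 14.2% being higher and 1.84% lower. In the mutant this held for Su(z)2, with means of 81.8% and 84.0%, 1 of 10 against 15.5% of all genes, 14.7% higher and 0.825% lower. For H3R17me2 in the control, E(z), Su(z)12 and Sce were higher at 40 days and pho was lower, 4 of the 10, where 23.3% of all genes did not overlap, 6.12% being higher and 17.2% lower. In the mutant, Sce and pho were higher and E(z) and Su(z)2 lower at 40 days, again 4 of the 10, where 22.5% did not, 13.0% being higher and 9.53% lower. At Sce the old H3R17me2 libraries were higher in both genotypes, with differences of 51.3 percentage points in the control and 28.0 in the mutant. At E(z) the order was opposite, with 35.3 points higher at 40 days in the control and 23.1 points lower in the mutant, and at pho as well, with 23.9 points lower and 38.4 points higher. The share of all genes with opposite orders was not computed. With the same number of top peaks in every list E(z) was higher by 17.7 points at 40 days in the mutant too and the difference at pho in the mutant was 0, and from 1 replicate alone the pho difference in the control was -1.14 or -46.7 points. All these comparisons of age within a mark use libraries whose mean coverage over all genes also differed: mean H3K27me3 coverage was 14.6% to 18.8% at 3 days and 22.6% to 24.8% at 40 days, mean H3R17me2 coverage was 22.3% to 38.1% and 15.8% to 36.1%, and the part of this in the values of single genes was not tested.

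**Figure D4:**
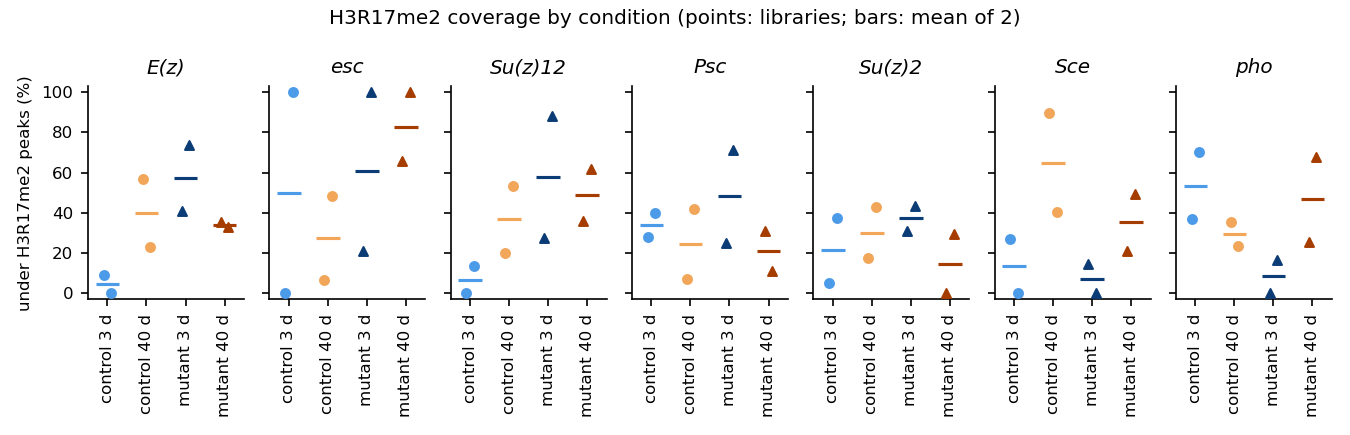
H3R17me2 coverage of 7 of the genes in percent by condition, one point per library and a bar at the mean of 2. Both 3-day control libraries lie at or below 9.02% for E(z) and at or below 13.6% for Su(z)12, both 3-day mutant libraries lie at or below 16.7% for pho, and the 2 libraries of a condition often differ by more than the means of the conditions do.

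The genotype comparison asked whether the LKRSDH MB01942 mutation changed either mark at these genes. Over 4 against 4 libraries of both ages, 0 of the 10 genes had an adjusted or an unadjusted p under 0.05 by the exact permutation test for either mark, and 0 were without overlap, where 0.194% of all genes were for H3K27me3 and 1.79% for H3R17me2. The smallest unadjusted p was 0.0857, for H3K27me3 at ph-p, with means of 1.94% in the mutant and 1.31% in the control (adjusted p = 1, exact test).

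At single ages, H3K27me3 at 3 days was without overlap at ph-p alone, higher in the mutant, 1 of the 10 genes against 6.32% of all genes, 2.44% higher and 3.89% lower; with 3 kb upstream in place of 1 kb the order of the means reversed. At 40 days Su(z)2 was higher and Sce lower in the mutant, 2 of 10 against 8.65%, 4.81% higher and 3.84% lower. H3R17me2 at 3 days was higher in the mutant at E(z), with means of 57.2% and 4.51%, and at Su(z)12, with 57.7% and 6.79%, and lower at pho, with 8.34% and 53.5%, which makes 3 of 10 where 21.5% of all genes did not overlap, 11.5% being higher and 10.01% lower. At 40 days only esc was without overlap, with means of 82.8% in the mutant and 27.4% in the control. That is 1 of 10 against 24.9% of all genes, 20.4% higher and 4.47% lower. Mean H3R17me2 coverage over all genes at 40 days was 15.8% and 27.05% in the control and 26.9% and 36.1% in the mutant. The part of this in the difference at esc was not tested. The age and genotype comparisons share libraries, so the 3-day control values of E(z) and Su(z)12 and the 3-day mutant values of pho enter both.

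Beside other chromatin regulators, the 10 genes differed mainly by Psc and Su(z)2. Their median H3K27me3 coverage was 0.813% and their median H3R17me2 coverage 31.0%, against 0 and 28.1% over all genes. Among 20 other Polycomb genes, such as Scm, Sfmbt and Asx, 19 had no H3K27me3 peak in any library, and jing, a zinc-finger gene, had 82.8% ± 2.11 (SD, n = 8). The median was 0 for H3K27me3 and 25.0% for H3R17me2. The highest H3R17me2 means were those of Jarid2, a PRC2 partner, with 44.3%, and jing, with 39.0%, and the lowest those of crm and mxc on the X, with 0. Among 20 Trithorax group genes, which act against Polycomb silencing, 19 had no H3K27me3 peak and tna had 6.77% ± 6.64. Their median H3R17me2 coverage was 21.6%, with kto at 41.7% and kis at 41.3% as the highest and trr and wds on the X at 0.

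The 8 Hox genes, the classic Polycomb targets, showed what full coverage looks like in these lists. Their median H3K27me3 coverage was 100%, with pb lowest at 94.3% ± 0.420 and Scr next at 98.2% ± 1.24 (SD, n = 8), so Psc, at 98.9%, lay in their range and Su(z)2, at 82.3%, below it. Of 10 housekeeping genes, none had an H3K27me3 peak, and their median H3R17me2 coverage was 14.0%, with Cam at 44.5% and alphaTub84B at 29.4% as the highest and Gapdh1 at 6.48% and RpS20 at 6.74% as the lowest. The Hox genes also had a higher median H3R17me2 coverage, 50.2%, than the other lists, from 39.8% at Scr and 47.1% at Antp to 51.7% at Ubx and 52.6% at abd-A. These counts and medians describe the lists and were not tested.

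**Figure D5:**
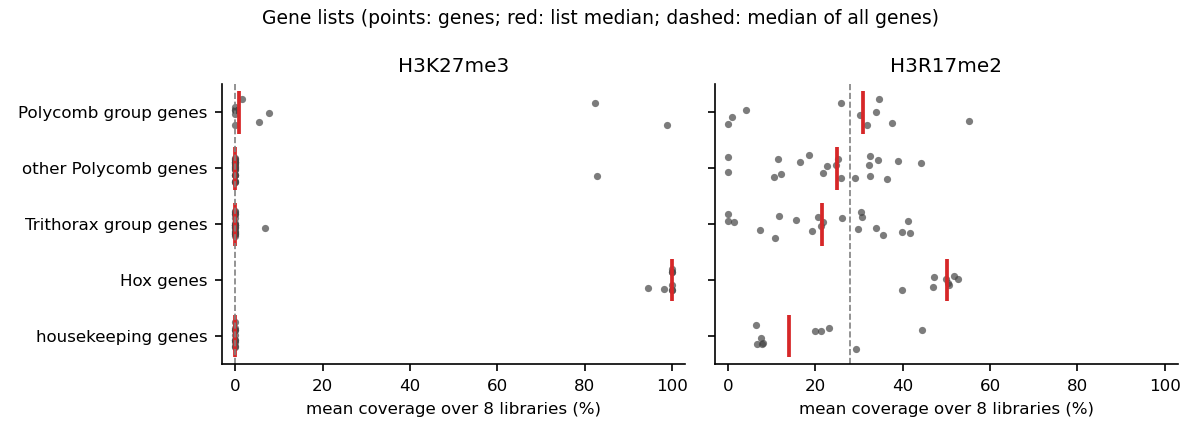
Mean coverage over 8 libraries in percent for each gene of 5 lists, H3K27me3 on the left and H3R17me2 on the right, with the list median in red and the median of all 13945 genes dashed. Under H3K27me3 Psc, Su(z)2 and jing stand far to the right of the other Polycomb genes, near the 8 Hox genes with a median of 100%; under H3R17me2 the lists overlap, with medians from 14.0% to 50.2%.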

How the data were processed

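ChIP-seq libraries from fly heads were available as 16 lists of broad peaks. Per the labels and the study's methods, the authors trimmed reads with Trim Galore 0.6.0, aligned them to dm6 with Bowtie2 2.5.1, removed duplicates, used SAMtools 1.19 and called broad peaks against input with MACS2 2.2.7.1. The fold enrichment values are ratios of precipitated to input signal, as deposited by the authors. The -log10 p and -log10 q values are those the authors' MACS2 gave each peak, as deposited. The lowest -log10 p in the lists was 1.0, which is weaker than the p-value setting that the study reports for its peak calling. The H3R17me2 peaks over the 10 genes had a -log10 p of 1.05 to 2.35. The lists hold no counts, so depth is unknown and no interval was computed, and a gene without a peak is not a gene without the mark.

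Files were assigned to samples by the peak names. Overlapping peaks of a list were merged, and coverage was the percentage of gene body and 1 kb upstream under them, for 13945 protein-coding genes (Ensembl release 115, chromosomes 2L, 2R, 3L, 3R, 4 and X). No peak reached beyond a chromosome end. Exact permutation tests on libraries were two-sided, adjusted by Benjamini-Hochberg over all genes, and tested on simulated data. Python 3.11.15, NumPy 2.4.6, pandas 2.3.3 and matplotlib 3.10.9 were used. Named were the 10 members, genes overlapping or next to them, and the highest and lowest of each list. The alternatives varied the peak threshold, the number of peaks, the joining of gaps, the region, the pairing and the libraries. The members and lists were chosen with earlier results of these data known. Of 58 listed genes, 3 were matched by a synonym. Sequences of chromosome 2R entered the motif counts and are not printed here.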

Additional observations from a re-analysis of the deposited data

Results flagged for a closer look

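Each gene's 8 libraries of a mark were searched for 1 library far from the other 7, which chance gives in about 1 of 20 sets of untied values. Of 14 sets with any spread, 3 had one, and in those of Psc and ph-d the other 7 values were tied, so that any differing library would stand out. Replicate 2 of the 3-day mutant had an H3K27me3 coverage of 53.0% at esc. Replicate 1 of the 3-day mutant had 91.0% at Psc, where the other 7 libraries had 100%. Replicate 2 of the 40-day control had an H3R17me2 coverage of 7.44% at ph-d, where the others had 0.

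The change of H3R17me2 with age was opposite in the 2 genotypes, without overlap of libraries in either, at E(z) (35.3 percentage points in the control and -23.1 in the mutant) and at pho (-23.9 and 38.4 points). The share of all genes with such opposite changes was not computed, and the difference between the genotypes was not tested. In the control, 6.12% of all genes were higher and 17.2% lower at 40 days without overlap. In the mutant, 13.0% were higher and 9.53% lower. With the same number of top peaks in every list the E(z) change in the mutant was 17.7 points and that of pho in the mutant 0, and with replicates left out the pho change in the control ran from -46.7 to -1.14 points.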

How the results depend on the processing

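The 2 genes with at least 50% H3K27me3 coverage in all libraries and the 5 without an H3K27me3 peak were within 1.5 times of these counts under every alternative run. The calls of age and genotype were 0 under every alternative, in a design where none of 13945 genes passed, so this says nothing of their stability. The calls in favour of H3R17me2 depended on the peak threshold: they fell from 4 to 0 with peaks of q under 0.05, with peaks of p under 0.001 and with the same number of top peaks in each list (3575), and the median H3R17me2 coverage of the 10 genes fell from 31.0% to 0, 0 and 7.80% in the same order. The alternatives remove H3R17me2 peaks by construction. Leaving out replicates gave 0 to 3 calls for H3K27me3, 0 to 5 for H3R17me2 and a median of 21.8% to 35.3%; without replicate 1 or without replicate 2 there were 0 calls in either direction, as 4 against 4 libraries allow no smaller p than 0.0286. With 1 library left out there were 3 for H3K27me3 and 3 to 5 for H3R17me2. With the replicate block, a paired test over 8 pairs, there were 0 calls in either direction, with adjusted p from 0.0591 to 0.0627 for the 7 genes called without it, and 0 calls for age and genotype. The replicate differences of 2 conditions correlated by -0.17 to 0.105 across genes over 28 pairs of conditions. Such a correlation does not see a shift common to all genes. Mean H3R17me2 coverage was higher in replicate 2 in all 4 conditions, by 9.21 to 15.8 percentage points. Whether the replicate numbers pair the libraries was therefore not settled. Crossing the numbers of the 3-day H3K27me3 libraries, chosen after seeing the data, gave 0 calls for genotype, where 4 pairs allow no p below 0.125, so it says nothing of the pairing.

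The ph-p to ph-d difference in H3K27me3 was 0.708 points with q under 0.05 (adjusted p = 0.5), 0.194 with p under 0.001 (adjusted p = 1) and 0 with the gene body alone (adjusted p = 1), by the exact sign-flip test. Without a replicate it was 1.43 to 1.82 points, and that of Psc to Su(z)2 16.4 to 16.8 points, where 4 libraries allow no p below 0.125. Of 17 differences between 2 and 2 libraries without overlap, 14 became 0 with q under 0.05 and 4 values reversed: ph-p between genotypes at 3 days was -0.775 points with p under 0.001 and -4.21 with 3 kb upstream, and with the same number of top peaks the change with age in the mutant was 17.7 points for E(z) and 13.7 for Su(z)2. The cause was not tested.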
